A study of Homo sapiens with 8 samples.

Results

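The 10 genes described here encode the transcription factor NRF2 (gene NFE2L2), its inhibitor KEAP1, and 8 genes long known as NRF2 targets, namely NQO1, HMOX1, GCLC, GCLM, TXNRD1, SRXN1, TXN and GSR. The rule picks them by symbol and uses no measured value, although the genes were chosen with earlier results of these data known. Each symbol matched 1 of the 60668 gene rows of the count files. RNA was measured in D283-OMO cells, which are D283 Med cells, an established medulloblastoma line, carrying a Flag-tagged OMOMYC transgene that doxycycline (DOX) switches on. OMOMYC is a dominant-negative fragment of the MYC protein. The untreated group (OMO) and the DOX-treated group (OMO+DOX, 0.25 µg/mL for 72 h) held 4 libraries each, from independent biological replicates. Both groups carry the lentiviral transgene and were selected with hygromycin B. No library comes from DOX-treated cells without OMOMYC, so effects of DOX itself and of OMOMYC cannot be told apart in these data.

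In unstressed cells KEAP1 binds NRF2 and hands it to a CUL3 and RBX1 ubiquitin ligase for destruction by the proteasome. Oxidants and electrophiles modify cysteines of KEAP1, upon which NRF2 accumulates, pairs with a small MAF protein and binds antioxidant response elements of its target genes. Since much of this control acts on the NRF2 protein, NFE2L2 RNA is no measure of NRF2 activity. The targets make glutathione (GCLC, GCLM), return glutathione and thioredoxin to their reduced form (GSR, TXNRD1), repair peroxiredoxins (SRXN1), reduce quinones (NQO1) and degrade heme (HMOX1).

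The core of the antioxidant response element, TGACNNNGC, was searched on both strands of RefSeq promoters, each running from 250 bases before to 50 bases after an annotated start (GRCh38.p14). The table held 11 promoters of 8 of the genes, all but HMOX1 and GSR. The core was found in 4 promoters of 3 genes, GCLM, KEAP1 and TXNRD1, and in 13.3% of all 35116 promoters. For the other genes searched, a missing match says only that the core is not in these windows. CACGTG, the E-box that MYC and MAX bind, was found in 0 of the 11 promoters and in 7.26% of all, which says only that these letters are not in these windows. The windows below show where the NRF2 core lies near annotated starts of GCLM, TXNRD1 and KEAP1. These genes changed in different directions between the groups, and a link of the core to any change was not tested. Each is written 5′ to 3′ on the strand of its gene, with the match in capitals and 10 bases on either side.
GCLM: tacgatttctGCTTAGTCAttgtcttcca
TXNRD1, first start: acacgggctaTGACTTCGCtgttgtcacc
TXNRD1, later start: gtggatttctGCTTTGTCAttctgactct
KEAP1, upstream match: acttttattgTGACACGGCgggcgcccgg
KEAP1, downstream match: gcccggctctGCTTAGTCAtggtgacctg
The GCLM window lies at chr1:93909446-93909474 on the minus strand, and its match, read as the reverse complement of the core, ends 25 bases before the start. Of its 29 bases, 11 are exonic in a GENCODE 29 transcript. The TXNRD1 windows lie on the plus strand at chr12:104215670-104215698, 90 bases before the first start and outside annotated exons, and at chr12:104286920-104286948, 93 bases before a later start and inside an exon of another transcript. The KEAP1 windows lie on the minus strand at chr19:10502807-10502835 and chr19:10502784-10502812, 45 and 22 bases before the start of 1 of its 2 promoters, and both are exonic in other transcripts. A further match, which reaches the first start of TXNRD1, is not shown. A match is a run of letters, not a measured binding site.

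DOX treatment was followed by small changes in both directions rather than by a common rise or fall of the NRF2 antioxidant genes. Of the 9 genes that passed the filter on low counts (at least 4 of 8 libraries above 1 CPM, counts scaled to a library of 1000000), 5 were higher in OMO+DOX, 3 were lower and 1 passed the test in neither direction. TXNRD1, SRXN1, TXN, NQO1 and, barely, NFE2L2 rose, while KEAP1, GCLC and GCLM fell. The filter left out HMOX1. Calls were made with edgeR's quasi-likelihood test at an adjusted p below 0.05, and by that rule 76.6% of the 15222 genes tested were called, 38.5% as higher and 38.1% as lower. The count of 8 called among 9 is therefore no mark of these genes. At the thresholds in the study's methods (adjusted p below 0.001 and an absolute log2 fold change, log2FC, above 2; its results text names a looser adjusted p), 7.12% of all genes were called and 0 of the 9.

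The median absolute log2FC was 0.33 over the 9 genes and 0.43 over all genes tested, and only KEAP1, NQO1 and GCLM lay above the latter. Among all genes tested, 69.2% had a smaller absolute log2FC than GCLM, the most changed of the 9, and 12.7% a smaller one than NFE2L2. Values of the groups did not overlap for 7 of the 9 genes, compared with 71.7% of all genes tested. The median log2FC was 0.10 for the 9 genes and 0.01 for all genes.

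**Figure D1:**
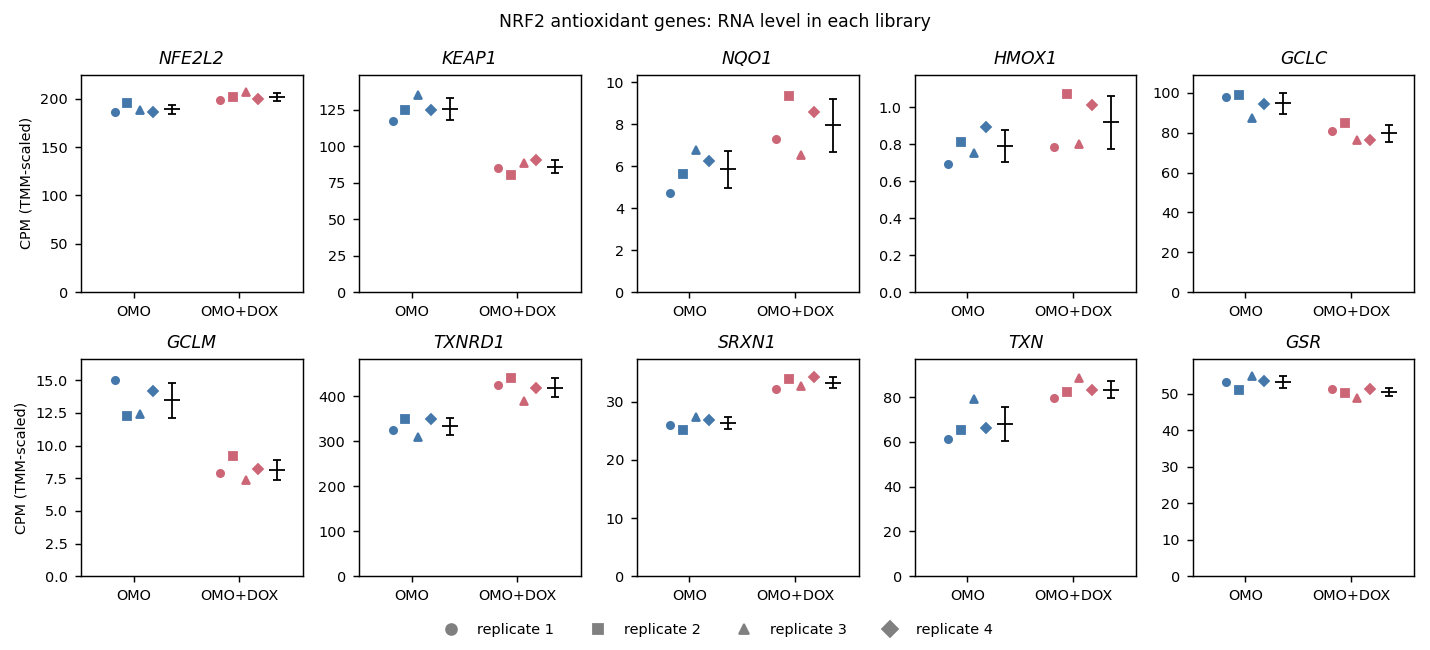
RNA level of each NRF2 antioxidant gene in CPM with TMM-scaled library sizes (vertical axes from 0, 1 scale per gene), for the 4 OMO (blue) and 4 OMO+DOX (red) libraries; the bars give mean and SD and marker shapes give the replicate. KEAP1 and GCLM lay lower in every OMO+DOX library than in every OMO library, TXNRD1 and SRXN1 lay higher, and NQO1, HMOX1 and GSR overlapped.

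NFE2L2 (ENSG00000116044.16, chr2:177227595-177392697, minus strand of GRCh38) encodes NRF2 and was almost level between the groups. It gave 186, 195, 188 and 186 CPM in the OMO libraries and 199, 201, 207 and 200 CPM in the OMO+DOX libraries. All OMO+DOX libraries were above all OMO libraries, by a margin of a few CPM. The means were 189 ± 4.32 and 202 ± 3.77 CPM (SD, n = 4 each), and the log2FC was 0.10 (SE 0.04, adjusted p = 0.0487 by edgeR). This call was lost with DESeq2's size factors (adjusted p = 0.0558), without the filter (0.349), and without any 1 of the OMO replicates or without OMO+DOX replicate 3 (adjusted p from 0.0588 to 0.256). It shares 1054 exonic bases with AC019080.1, a gene on the same strand with 2935 counts over the 8 libraries, and RSEM divides reads between them. Summed with it, the log2FC was 0.13 (edgeR adjusted p = 0.0134).

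KEAP1 (ENSG00000079999.14, chr19:10486120-10503741, minus strand), the adaptor that brings NRF2 to its ubiquitin ligase, fell. It gave 117, 125, 136 and 125 CPM in OMO and 84.9, 80.5, 88.7 and 90.7 CPM in OMO+DOX. The lowest OMO library stood well above the highest OMO+DOX library. The level in OMO+DOX was 0.686 times that in OMO (log2FC −0.54, SE 0.06, edgeR adjusted p = 3.36e-06), and it lay between −0.60 and −0.42 under every alternative run.

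The ratio of NFE2L2 to KEAP1 counts within a library needs no scaling between libraries. It was 1.59, 1.56, 1.39 and 1.49 in OMO and 2.34, 2.50, 2.34 and 2.20 in OMO+DOX. Every OMO+DOX library thus held more NFE2L2 reads per KEAP1 read than any OMO library. The mean rose from 1.51 ± 0.0917 to 2.34 ± 0.121 (SD, n = 4 each), a log2 difference of 0.64 (SE 0.06). By exact permutation (two-sided), p was 0.0286, the smallest value possible with 4 against 4 libraries, and 0.0476 after adjustment over the 5 ratios compared here.

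RNA of both subunits of glutamate-cysteine ligase, which makes the rate-limiting step of glutathione synthesis, fell. GCLC (ENSG00000001084.13, chr6:53497341-53616970, minus strand) encodes the catalytic subunit and gave 97.8, 99.2, 87.5 and 94.3 CPM in OMO. Its OMO+DOX libraries gave 81.1, 85.0, 76.4 and 76.4 CPM, all below the OMO libraries. The log2FC was −0.25 (SE 0.05, edgeR adjusted p = 0.00138). With scaling by library size only, a setting that raised the median log2FC of all genes by 0.13, it was −0.12 (edgeR adjusted p = 0.0820).

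GCLM (ENSG00000023909.10, chr1:93885205-93909456, minus strand) encodes the modifier subunit, which makes the ligase more efficient, and carries an NRF2 core in its promoter window. It gave 15.0, 12.2, 12.4 and 14.1 CPM in OMO and 7.91, 9.17, 7.35 and 8.21 CPM in OMO+DOX. The groups were clearly apart, although GCLM was a low gene, with between 368 and 737 counts in a library. OMO+DOX cells held 0.605 times the OMO level (log2FC −0.72, SE 0.09, edgeR adjusted p = 1.46e-05). The fall of GCLM exceeded that of GCLC. Counts of GCLC per GCLM count were 6.50, 8.10, 7.05 and 6.67 in OMO and 10.3, 9.26, 10.4 and 9.31 in OMO+DOX, without overlap. The log2 difference of the ratio was 0.47 (SE 0.08), with an exact permutation p = 0.0286 (0.0476 adjusted over the 5 ratios).

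TXNRD1, TXN and SRXN1 rose. TXNRD1 (ENSG00000198431.16, chr12:104215779-104350305, plus strand) encodes the cytosolic selenoenzyme that reduces thioredoxin with NADPH. It gave 325, 349, 309 and 349 CPM in OMO and 426, 441, 390 and 419 CPM in OMO+DOX. It had the most reads of the 10 genes, and all its OMO+DOX libraries exceeded all OMO libraries. The level rose 1.26-fold (log2FC 0.33, SE 0.06, edgeR adjusted p = 0.000176).

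TXN (ENSG00000136810.13, chr9:110243811-110256640, minus strand) encodes thioredoxin, the substrate of that reductase and the protein that passes electrons on to peroxiredoxins. The OMO libraries gave 61.3, 65.1, 79.2 and 66.2 CPM and the OMO+DOX libraries 79.7, 82.1, 88.5 and 83.1 CPM. OMO replicate 3 came close to the lowest OMO+DOX library, and the groups were only just apart. The log2FC was 0.29 (SE 0.07, edgeR adjusted p = 0.00329), and between 0.22 and 0.36 with each replicate left out in turn. The genome holds processed copies of TXN, and the 7 named pseudogenes had at most 13 counts each over all libraries.

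SRXN1 (ENSG00000271303.1, chr20:646615-653370, minus strand) encodes sulfiredoxin, which restores peroxiredoxins that have been over-oxidised. It gave 26.0, 25.2, 27.4 and 26.8 CPM in OMO and 32.2, 33.9, 32.8 and 34.2 CPM in OMO+DOX. The spread within each group was small beside the gap between them. The log2FC was 0.34 (SE 0.05, edgeR adjusted p = 3.51e-05). SRXN1 shares 2292 exonic bases with AL121758.1 on the same strand, to which 19.9 counts were given over the 8 libraries.

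GSR (ENSG00000104687.14, chr8:30678061-30727999, minus strand) encodes glutathione reductase, the counterpart of TXNRD1 for glutathione, and did not pass the test. It gave 53.2, 51.1, 54.8 and 53.4 CPM in OMO and 51.3, 50.01, 48.9 and 51.1 CPM in OMO+DOX, and the groups overlapped. The log2FC was −0.08 (SE 0.04, edgeR adjusted p = 0.109), and it was 0.05 (0.297) with scaling by library size only. Without OMO replicate 2 it was −0.12 and passed (edgeR adjusted p = 0.0414).

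Counts per TXN count were compared for TXNRD1, SRXN1 and GSR, although GSR acts on glutathione rather than on thioredoxin. TXNRD1 counts per TXN count averaged 4.96 ± 0.703 in OMO and 5.04 ± 0.448 in OMO+DOX (SD, n = 4 each), a log2 difference of 0.03 (SE 0.13) with an exact permutation p = 0.771. OMO replicate 3, at 3.91, stood apart from the other OMO libraries at 5.27 to 5.36, and without it the log2 difference was −0.08. Replicate 3 was also the lowest library of OMO+DOX, at 4.41 against 5.05 to 5.38. For SRXN1 per TXN, the means were 0.391 ± 0.0332 and 0.400 ± 0.0201, and the log2 difference was 0.04 (SE 0.07, exact permutation p = 0.657). These differences lie within their standard errors, which does not show that the ratios are equal. GSR counts per TXN count were 0.868, 0.784, 0.693 and 0.807 in OMO and 0.643, 0.610, 0.552 and 0.615 in OMO+DOX. No OMO+DOX library reached the lowest OMO library, and the log2 difference was −0.38 (SE 0.08, exact permutation p = 0.0286, 0.0476 adjusted over the 5 ratios).

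**Figure D2:**
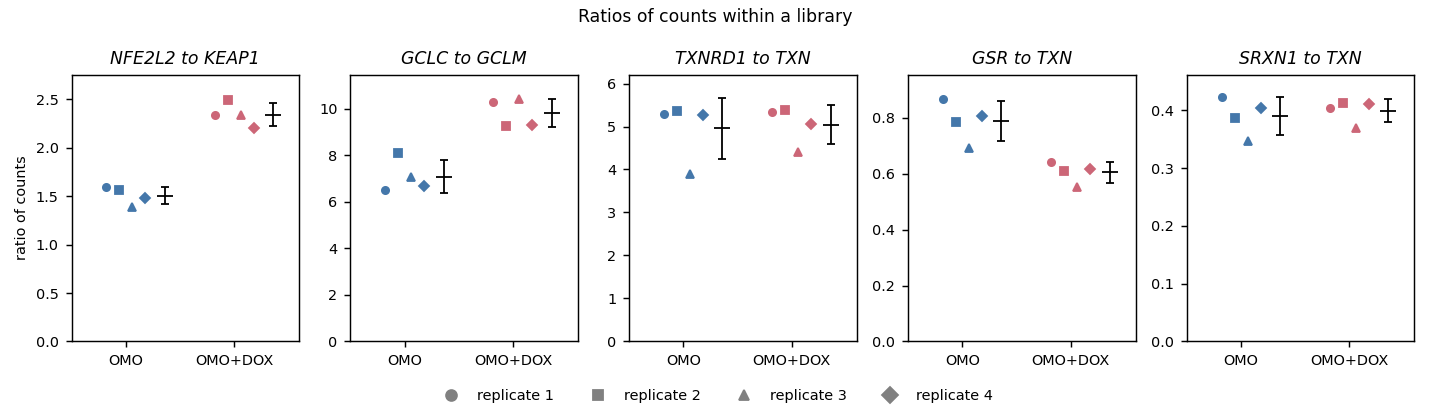
Ratios of counts of 2 genes within each library (vertical axes from 0, no unit), for 4 OMO (blue) and 4 OMO+DOX (red) libraries, with mean and SD; marker shapes give the replicate. NFE2L2 to KEAP1 and GCLC to GCLM lay higher in every OMO+DOX library, GSR to TXN lay lower, and TXNRD1 to TXN and SRXN1 to TXN overlapped.

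NQO1 and HMOX1, the target genes most often used to read NRF2 activity, were among the lowest of the 10. NQO1 (ENSG00000181019.13, chr16:69706996-69726951, minus strand) encodes a quinone reductase that works with NADH or NADPH. It gave 4.71, 5.65, 6.77 and 6.27 CPM in OMO and 7.31, 9.37, 6.55 and 8.59 CPM in OMO+DOX. OMO+DOX replicate 3 fell below OMO replicate 3, so the groups overlapped. The log2FC was 0.44, with the largest standard error of the 9 tested genes (SE 0.13, edgeR adjusted p = 0.0101).

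HMOX1 (ENSG00000100292.17, chr22:35380361-35394214, plus strand) encodes the inducible heme oxygenase, which degrades heme to biliverdin, carbon monoxide and iron. Between 34 and 46 counts fell on it in a library. It gave 0.694, 0.813, 0.752 and 0.896 CPM in OMO and 0.789, 1.07, 0.802 and 1.01 CPM in OMO+DOX, with overlap. Only 2 libraries exceeded 1 CPM before TMM scaling, and the gene was not tested in the fit. The difference in mean log2 CPM was 0.21, which a two-sided exact permutation test chosen after the counts were seen put at p = 0.2. Without a filter the log2FC was 0.19 (SE 0.20, edgeR adjusted p = 0.462). No difference was detectable at this depth.

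**Figure D3:**
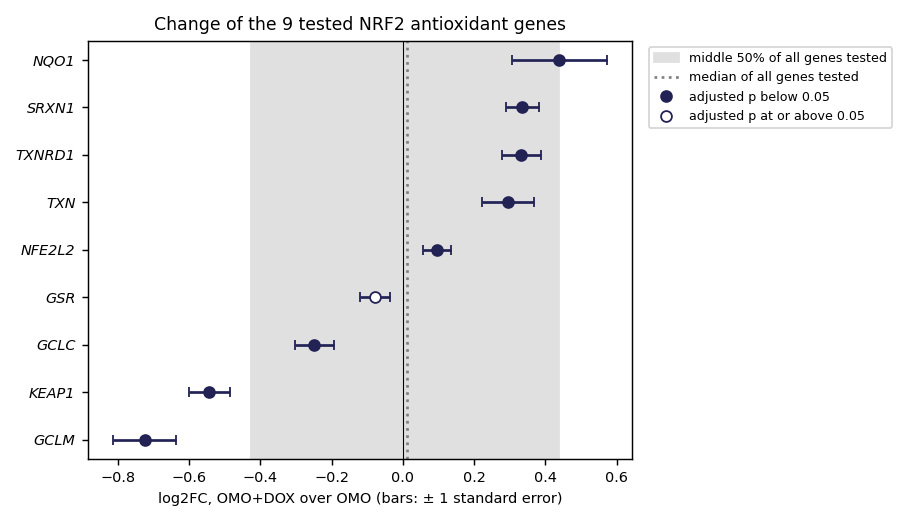
Log2FC of OMO+DOX over OMO for the 9 tested genes (points, filled where the edgeR adjusted p was below 0.05), with bars of 1 standard error on either side; the grey band holds the middle 50% of all 15222 genes tested and the dotted line their median of 0.01. GCLM at −0.72 and KEAP1 at −0.54 lie below the band, NQO1 at 0.44 lies just past its upper edge, and GSR, the open point at −0.08, turns to 0.05 with scaling by library size only.

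Levels of different genes were compared as CPM per kilobase of exonic sequence. On this scale the OMO cells held most TXN (59.5 ± 6.82) and TXNRD1 (49.6 ± 2.90), followed by KEAP1 (33.4 ± 2.01) and NFE2L2 (31.6 ± 0.722; SD, n = 4 each). KEAP1 and NFE2L2 lay within their spread of each other in OMO. In OMO+DOX their order had turned, with NFE2L2 at 33.7 ± 0.631 and KEAP1 at 22.9 ± 1.19. GSR (14.1 ± 0.412), GCLC (10.9 ± 0.603) and SRXN1 (9.77 ± 0.353) formed a middle group in OMO. In OMO+DOX, SRXN1 at 12.3 ± 0.348 stood above GCLC at 9.22 ± 0.477. GCLM, NQO1 and HMOX1 were lowest in OMO, at 2.48 ± 0.2498, 1.80 ± 0.272 and 0.328 ± 0.0360. In OMO+DOX, NQO1 at 2.45 ± 0.388 lay above GCLM at 1.51 ± 0.141. Per kilobase of the longest transcript NFE2L2 was already above KEAP1 in OMO, at 66.2 ± 1.51 and 42.5 ± 2.56, so that turn in order depends on the length used. The same holds for SRXN1 and GCLC, which on that scale stood at 12.3 ± 0.348 and 20.9 ± 1.082 in OMO+DOX. Other orders depend on the length too. Per kilobase of the longest transcript, GCLC (24.8 ± 1.37) was above GSR (16.65 ± 0.486) in OMO. TXN and TXNRD1 lay within their spread of each other in OMO on that scale, at 78.2 ± 8.96 and 77.9 ± 4.55.

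Around the 10 genes, 6 lists of other genes of the pathway were counted by role. Of 111 symbols, 110 had a row and 94 passed the filter, of which 37 were higher, 43 were lower and 14 were neither, beside 38.5% higher and 38.1% lower among all genes tested. Their median log2FC was −0.11, beside 0.01 for all genes, and 50 of the 94 had a larger absolute log2FC than the median of all genes. With scaling by library size only, 41 were higher and 39 lower, and the median of the 94 was 0.01 beside 0.14 for all genes. The lists were made with earlier results of these libraries known, and the counts are descriptions.

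Among partners and regulators of NRF2, 7 of 15 tested genes were higher and 5 lower, beside 38.5% and 38.1% of all genes. The median log2FC of this list was 0.04. RNA of the small MAF proteins, with which NRF2 binds DNA, rose. MAFF gave 6.14, 4.78, 5.41 and 5.42 CPM in OMO and 17.7, 18.1, 20.5 and 21.1 CPM in OMO+DOX, a log2FC of 1.83 (SE 0.09, edgeR adjusted p = 3.66e-09). MAFK rose by a log2FC of 1.13 (SE 0.09, edgeR adjusted p = 5.02e-07), from 2.74 ± 0.295 to 5.99 ± 0.225 CPM. MAFG, named after its value was seen because it is the remaining small MAF, rose by 0.57 from a higher level of 84.4 CPM. BACH1 and BACH2, repressors that compete with NRF2 for the same elements and were likewise named afterwards, rose by log2FC 0.58 and 0.98. The related factor NFE2L3 fell by 0.58 (SE 0.05), and RBX1, the RING subunit of the KEAP1 ligase, fell by 0.49 (SE 0.08; edgeR adjusted p = 4.39e-07 and 0.000174). CUL3, the scaffold of that ligase, had a log2FC of −0.10 (edgeR adjusted p = 0.0560).

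In the glutathione list 15 of 31 tested genes were higher and 12 lower, beside 38.5% and 38.1% of all genes. The median log2FC of this list was 0.16. The largest rises were glutathione S-transferases of the mu class. GSTM3 went from 12.1 ± 0.5999 to 30.6 ± 0.722 CPM (log2FC 1.34, SE 0.05, edgeR adjusted p = 4.86e-10) and GSTM4 from 6.71 ± 0.764 to 15.2 ± 0.786 CPM (log2FC 1.18). GSTM4 has neighbours of similar sequence, and reads that match several of them were divided by RSEM, so its separate value is uncertain. Its lowest count was fractional, at 275.6, while that of GSTM3 was 524.0. How many reads GSTM3 shares was not examined. The largest falls were those of GPX3, the secreted glutathione peroxidase, and SLC7A11, the cystine importer that supplies cysteine for glutathione and is itself a known NRF2 target. GPX3 went from 1027 ± 87.3 to 428 ± 25.7 CPM (log2FC −1.26, SE 0.07, edgeR adjusted p = 8.02e-09). SLC7A11 gave 109, 98.4, 78.0 and 107 CPM in OMO and 40.8, 60.0, 37.9 and 43.6 CPM in OMO+DOX, without overlap (log2FC −1.11, SE 0.14, edgeR adjusted p = 2.02e-05). GSS, the enzyme after glutamate-cysteine ligase and named after its value was seen, fell by 0.69 (SE 0.05).

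Of the 17 genes of the thioredoxin and peroxiredoxin list, all tested, 6 were higher and 7 lower, beside 38.5% and 38.1% of all genes. The median log2FC of this list was −0.13. NXN, a thioredoxin-like oxidoreductase, rose from 26.1 ± 1.71 to 53.2 ± 3.05 CPM (log2FC 1.03). MSRA, which reduces oxidised methionine with electrons from thioredoxin, rose from 1.81 ± 0.130 to 3.21 ± 0.196 CPM (log2FC 0.82). PRDX1, an abundant cytosolic peroxiredoxin that TXN reduces and SRXN1 repairs, fell while TXN, TXNRD1 and SRXN1 rose. It gave 779, 841, 953 and 818 CPM in OMO and 342, 337, 368 and 357 CPM in OMO+DOX (log2FC −1.27, SE 0.06, edgeR adjusted p = 5.08e-09). TXNL1, a thioredoxin-like protein bound to the proteasome, fell by 0.72 (SE 0.05).

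The quinone, heme and iron list had the lowest median of the 6, at −0.40, with 5 of 18 tested genes higher and 12 lower, beside 38.5% and 38.1% of all genes. EPHX1, the microsomal epoxide hydrolase, went from 21.7 ± 1.92 to 46.5 ± 2.55 CPM (log2FC 1.10, SE 0.07). FTL, the ferritin light chain, rose by a log2FC of 0.63 (SE 0.08) while FTH1, the heavy chain, named after its value was seen, fell by 0.37 (SE 0.07). AKR1A1, an aldehyde reductase, fell from 157 ± 15.3 to 62.0 ± 2.70 CPM (log2FC −1.34). CBR3, a carbonyl reductase, had the largest fall of this list (log2FC −1.42, SE 0.23, edgeR adjusted p = 0.000159) at a level of 1.44 ± 0.371 CPM in OMO. It passed the filter only through the OMO libraries, since the OMO+DOX libraries gave 0.690, 0.399, 0.411 and 0.638 CPM, so a difference was built into its being tested. It was not tested without any 1 OMO replicate or when more libraries had to exceed 1 CPM. The aldo-keto reductase genes AKR1B10, AKR1C1, AKR1C2 and AKR1C3, which NRF2 induces in many human cells, were below 1 CPM in both groups on average. AKR1B10 went from 0.349 to 0.872 CPM and AKR1C3 from 0.0674 to 0.294 CPM, each higher in every OMO+DOX library. The lowest count of AKR1C3 was 0. AKR1C1 and AKR1C2 overlapped between the groups, and none of these genes passed the filter.

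ME1, in the list of NADPH supply, had the largest log2FC among the 10 genes and all 6 lists. It encodes cytosolic malic enzyme, which makes NADPH from malate. It gave 6.90, 6.71, 6.79 and 6.90 CPM in OMO and 46.1, 54.03, 46.4 and 47.9 CPM in OMO+DOX. The rise was 7.11-fold (log2FC 2.83, SE 0.06, edgeR adjusted p = 6.09e-12), and ME1 was the 1 gene of the 94 past the thresholds of the study. In that list 4 of 10 genes were higher, ME1 included, and 5 lower, beside 38.5% and 38.1% of all genes. The median log2FC of the list was −0.27. TKT, an enzyme that rearranges sugar phosphates, and IDH1, the cytosolic isocitrate dehydrogenase, fell by 0.70 (SE 0.06) and 0.69 (SE 0.06). Of 3 tested enzymes that remove superoxide and peroxide, CAT fell by 0.39 and SOD2 by 0.33 (SE 0.04 each), and SOD1 had a log2FC of −0.08 (edgeR adjusted p = 0.311). SOD2 has 2 gene rows, and the value given is that of ENSG00000112096.18 only.

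**Figure D4:**
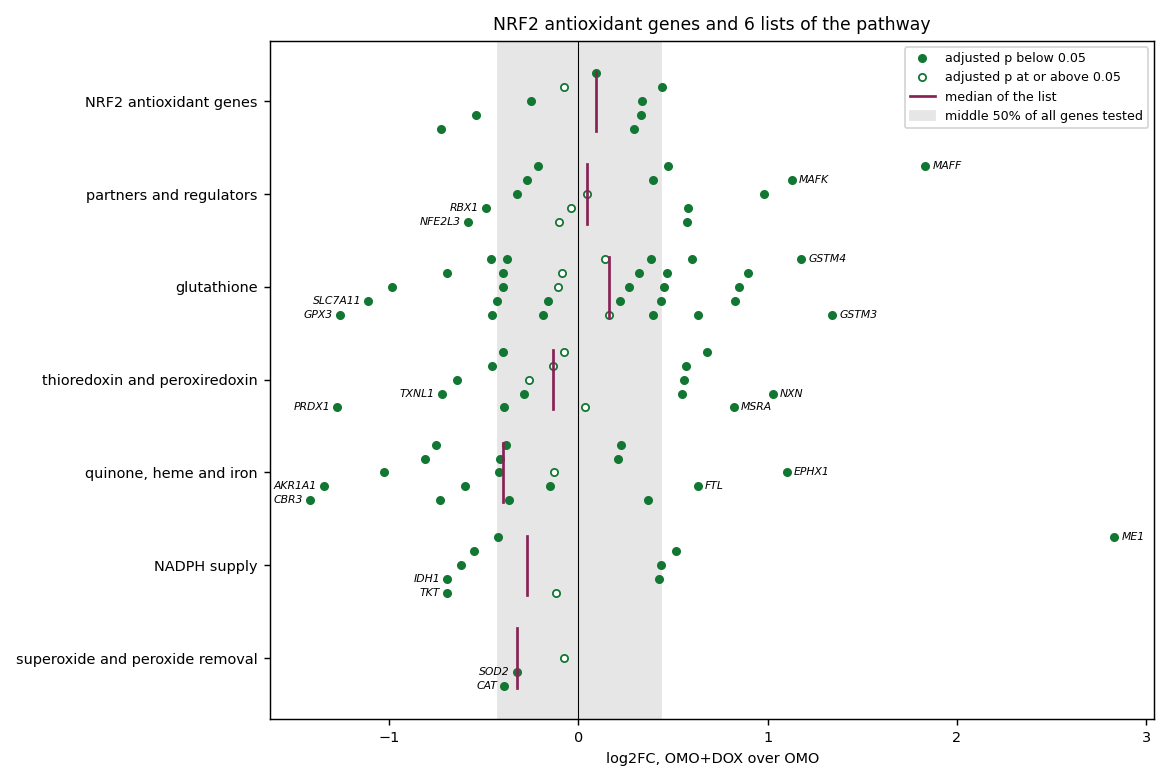
Log2FC of OMO+DOX over OMO for the tested NRF2 antioxidant genes and the genes of 6 pathway lists (1 point per gene, filled where the edgeR adjusted p was below 0.05), with the median of each list as a line and the middle 50% of all genes as a grey band; the vertical scatter has no meaning. The 9 antioxidant genes lie between −0.72 and 0.44, and ME1 at 2.83 is the most distant point.

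The libraries held between 38390696 and 54020506 counts, and 3 counts, taken as the limit of detection, correspond to at most 0.0748 CPM, which covers counting error only. CAD and NCL, genes known to be activated by MYC, fell by log2FC 0.48 and 0.44 (edgeR adjusted p = 1.33e-06 and 1.23e-06). MYC RNA was 939 ± 75.6 CPM in OMO and 1123 ± 56.8 CPM in OMO+DOX, and reads of OMOMYC cannot be told apart from it in these counts. All 7 markers of Group 3 medulloblastoma examined were present and fell, with a median log2FC of −2.57. Past the thresholds of the study were 5 of the 7. Among all genes tested, 38.1% were called lower and 7.12% passed those thresholds in either direction. The log2FC of the 7 markers ran from −3.55 for NRL to −1.04 for OTX2, which went from 1049 to 510 CPM. Of 9 markers of other cell types, 8 were below the filter, and COL1A1 stood at 22.1 and 23.4 CPM. The part of the falling tumour markers in the changes of the antioxidant genes was not tested.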

How the data were processed

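RNA-Seq of polyA+ RNA was analysed in 4 OMO and 4 OMO+DOX libraries, grouped by their labels. Stranded paired reads were trimmed (Trim Galore) and aligned (STAR, GENCODE 32, GRCh38) by the authors, who deposited RSEM expected counts per gene. The counts are not normalized, and reads matching several genes are already divided in them. Whether counting used strand is not given in the sources used here. Gene names and positions come from GENCODE 29 (58561 of 60668 IDs) or a gene name table (2088), and 19 IDs had no symbol.

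Expected counts were rounded and tested in edgeR 4.0.16 (R 4.3.3; TMM, quasi-likelihood test, no covariates, Benjamini-Hochberg over 15222 genes). Each SE was obtained as |log2FC| divided by √F. Within-library ratios were compared by two-sided exact permutation tests in scipy 1.17.1. The fits were tested on simulated counts, and the permutation test on sets of numbers with a known answer. Alternatives were other scalings and filters, the Wald test of DESeq2 1.42.0, a replicate block and each replicate left out.

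The text names the 10 genes, the 2 largest rises and 2 largest falls among called genes of each list, and MYC, CAD and NCL; 1 gene that this rule names is not reported here. Other genes were chosen after their values were seen. The members and lists were chosen with earlier results of these data known.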

Additional observations from a re-analysis of the deposited data

Results flagged for a closer look

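Of 74 groups of 4 values examined, 2 held a library far from the other 3, while chance would give about 3.7. The count ratio of TXNRD1 to TXN was 3.91 in OMO replicate 3 and between 5.27 and 5.36 in the other OMO libraries. GSTM4 stood at 14.0 CPM in OMO+DOX replicate 2 and between 15.4 and 15.7 CPM in the other OMO+DOX libraries.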

How the results depend on the processing

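KEAP1, NQO1, GCLM, TXNRD1, SRXN1 and TXN kept their direction and an adjusted p below 0.05 under all alternatives run. NFE2L2 lost its call in 8 of 15, and its log2FC ranged from 0.06 to 0.22. With scaling by library size only, GSR turned to a log2FC of 0.0484, the GCLC call was lost (−0.12), and 7157 genes were called higher and 4715 lower, against 5868 and 5793 with TMM. Without a filter on low counts, 36881 genes were tested, the quinone, heme and iron list gained 1 gene past the thresholds of the study (AKR1C3) and the superoxide and peroxide list 1 higher gene (SOD3). All genes past those thresholds numbered 1084, against 2097 without a filter, 562 when over 4 libraries had to exceed 1 CPM, and 705 to 922 with a replicate left out, when fewer genes pass the filter. Whether the replicate numbers pair the libraries was not settled. Correlations of same-numbered deviations were 0.157, 0.144, 0.241 and −0.176, and no differently numbered libraries were set beside them. With the replicate block NFE2L2 had a log2FC of 0.10 (edgeR adjusted p = 0.0805), 11805 genes were called against 11661, and no other of the 9 genes changed its call. For the ratios a replicate block allows no p below 0.125, and leaving out a library none below 0.0571, so neither tests stability. Among the 10 genes, HMOX1 had the fewest counts. The cause of these shifts was not tested unless stated.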
